A study of Homo sapiens with 34 samples.

Results

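The ligands and antagonists of the Nodal and activin pathway, 8 genes taken by symbol, were followed through 17 culture conditions of human embryonic stem cells. They are the ligands NODAL, GDF3 and INHBA, the co-receptor TDGF1, and the secreted antagonists LEFTY1, LEFTY2, CER1 and FST. These make up 8 of the 37951 genes in the deposited tables, and each symbol named 1 row in both tables. The cells were the wild-type human embryonic stem cell line ESI017, and each condition was sequenced as poly(A) RNA in 2 replicate libraries, 34 in all. Control cells stayed in mTeSR PLUS maintenance medium and are labelled 48 h, so that the 24 h cells have no control of their own time.

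All other cells spent the first 24 h in 1 of 4 mixes meant to give positions along the primitive streak. DE(a) held 100 ng/ml Activin A and 2 µM CHIR99021. APS (anterior primitive streak) combined activin at 30 ng/ml with bFGF at 20 ng/ml and CHIR99021 at 4 µM. MPS (mid) held the same activin and bFGF with 40 ng/ml BMP4 and 6 µM CHIR99021, and PPS (posterior) held bFGF, BMP4 and CHIR99021 at the MPS doses with no activin. Cells of each mix were then sequenced (24 h) or moved for a second day into 1 of 3 media. DE(b), for definitive endoderm, held 100 ng/ml activin and 250 nM LDN-193189. PM, for paraxial mesoderm, paired bFGF at 20 ng/ml with 250 nM LDN-193189 and with A-8301 at 1 µM. LM, for lateral mesoderm, joined BMP4 at 30 ng/ml to 4 µM IWP2 and the same dose of A-8301. The labels and the study's methods list no CHIR99021 for PM. A supplementary legend of the study names CHIR99021 in its standard PM treatment, and its results refer to strong Wnt activation in that medium. Comparisons with PM may therefore involve a Wnt agonist that the labels do not list. A condition is named by its mix and medium, such as PPS-DE(b). The activin dose was never varied alone across the 4 mixes, except that PPS differs from MPS, by the labels, in lacking activin.

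Nodal and activin are secreted ligands of the TGF-β family that signal through activin receptors and SMAD2/SMAD3. NODAL needs an EGF-CFC co-receptor such as TDGF1 (Cripto), whereas activin, a dimer of the INHBA product, does not. In the primitive streak Nodal signalling favours endoderm and induces its own inhibitors. LEFTY1 and LEFTY2 block NODAL at its receptors, CER1 (Cerberus) binds NODAL as well as BMP ligands, and FST (follistatin) binds activin. A-8301 inhibits the activin, Nodal and TGF-β type I receptors, LDN-193189 inhibits BMP receptors, CHIR99021 activates Wnt signalling and IWP2 blocks Wnt secretion. Activin added to the medium is protein and does not enter an RNA count, so INHBA values are the cells' own transcript.

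In GENCODE 44 on GRCh38 the genes lie at chr10:70431936-70447951 (NODAL, minus strand), chr12:7689784-7695775 (GDF3, minus), chr7:41667168-41705834 (INHBA, minus), chr3:46574534-46582457 (TDGF1, plus), chr1:225886282-225911382 (LEFTY1, minus), chr1:225936598-225941383 (LEFTY2, minus), chr9:14719724-14722733 (CER1, minus) and chr5:53480626-53487134 (FST, plus). Counts were taken over whole genes. The 250 bases before the RefSeq start (GRCh38.p14) were available for 6 of the 8 genes, with TDGF1 entered as CRIPTO at 2 starts, 7 windows in all. They were searched on both strands for AATNCACA, the motif of the Nodal partner factor FOXH1, for CAGAC, the short SMAD motif, for the SMAD palindrome GTCTAGAC and for the T-box motif TCACACC. Shown are the windows of the 3 genes that hold a motif, all of which fell along the series of mixes at 24 h. That of FST, which went the other way and holds none, is added. TDGF1, not shown, also fell along the mixes, and its 2 windows hold no motif. Each runs 5′ to 3′ on the gene's strand, and capitals mark the matches to AATNCACA and CAGAC. The NODAL window begins inside the longer GENCODE gene.
NODAL, chr10:70441682-70441931, minus strand: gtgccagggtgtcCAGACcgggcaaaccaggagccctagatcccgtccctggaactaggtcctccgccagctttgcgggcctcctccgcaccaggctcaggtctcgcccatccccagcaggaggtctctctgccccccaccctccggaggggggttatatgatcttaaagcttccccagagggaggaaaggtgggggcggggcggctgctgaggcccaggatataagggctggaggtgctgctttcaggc
GDF3, chr12:7695776-7696025, minus strand: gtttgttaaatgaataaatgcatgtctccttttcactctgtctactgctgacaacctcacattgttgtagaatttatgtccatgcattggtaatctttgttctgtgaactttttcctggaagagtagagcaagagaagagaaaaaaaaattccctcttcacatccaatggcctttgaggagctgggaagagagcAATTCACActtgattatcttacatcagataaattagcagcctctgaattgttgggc
CER1, chr9:14722734-14722983, minus strand: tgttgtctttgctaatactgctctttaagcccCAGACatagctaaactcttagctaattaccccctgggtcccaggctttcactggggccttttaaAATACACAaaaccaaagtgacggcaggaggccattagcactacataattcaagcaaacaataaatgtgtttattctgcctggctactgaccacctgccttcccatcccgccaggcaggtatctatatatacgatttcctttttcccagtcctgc
FST, chr5:53480379-53480628, plus strand: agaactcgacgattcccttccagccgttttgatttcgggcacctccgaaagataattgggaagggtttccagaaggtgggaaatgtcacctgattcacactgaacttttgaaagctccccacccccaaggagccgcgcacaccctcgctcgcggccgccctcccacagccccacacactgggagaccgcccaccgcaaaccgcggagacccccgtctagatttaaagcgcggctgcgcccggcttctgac

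AATNCACA was found in 2 of the 6 genes, with its first base 154 bases before the start in CER1 and 56 bases before it in GDF3, against 2.89% of 35116 RefSeq promoters of this length. CAGAC was found in CER1 at 218 and in NODAL at 237 bases before the start, but 38% of all promoters hold it. GTCTAGAC (0.182% of promoters) and TCACACC (2.76%) were in none of the 6. INHBA, TDGF1 and FST held none of the motifs in these windows. These are matches of letters only, and binding was not measured here.

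Libraries held 15522780 to 23439799 estimated counts (median 19341117). Levels are CPM (counts scaled to the library total), which rank conditions for 1 gene but do not compare genes, since they are not per length. A group with 3 or fewer counts in both libraries (0.128 to 0.193 CPM for 3 counts) was taken as at the floor. All 8 genes were among the 17895 that passed the filter on low counts and were tested. Tests are edgeR quasi-likelihood tests on the counts, log2 fold changes (log2FC) carry their standard error (SE), n = 2 per condition, and a gene is called at an adjusted p below 0.05 over all genes of a comparison. The labels do not say whether replicates came from separate cultures, while the study's figure legends call them biological replicates. The p-values measure only the spread between these samples. In bulk RNA, fewer cells of a type and less RNA per cell cannot be told apart. The labels were checked against marker lists. The pluripotency genes POU5F1, NANOG and SOX2 summed to 1815 to 2127 CPM in Control, and the streak genes TBXT, MIXL1 and EOMES to 1574 to 2955 CPM at 24 h against 1.58 to 1.861 in Control. The endoderm list (SOX17, FOXA2, CXCR4 and HHEX) summed to 130 to 803 CPM in DE(b) but also to 234.4 to 335 in PM. The PM sum was mostly CXCR4, at means of 199.9 to 293.1 CPM. In PM, HHEX averaged 0.361 CPM or less, and SOX17 and FOXA2 averaged 38.2 and 18.2 after DE(a) and 1.33 or less after the other mixes. The paraxial list (TBX6, MSGN1 and CDX2) summed to 370.6 to 466.5 in PM, and the lateral list (HAND1, FOXF1 and ISL1) to 451.3 to 2263 in LM.

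**Figure D1:**
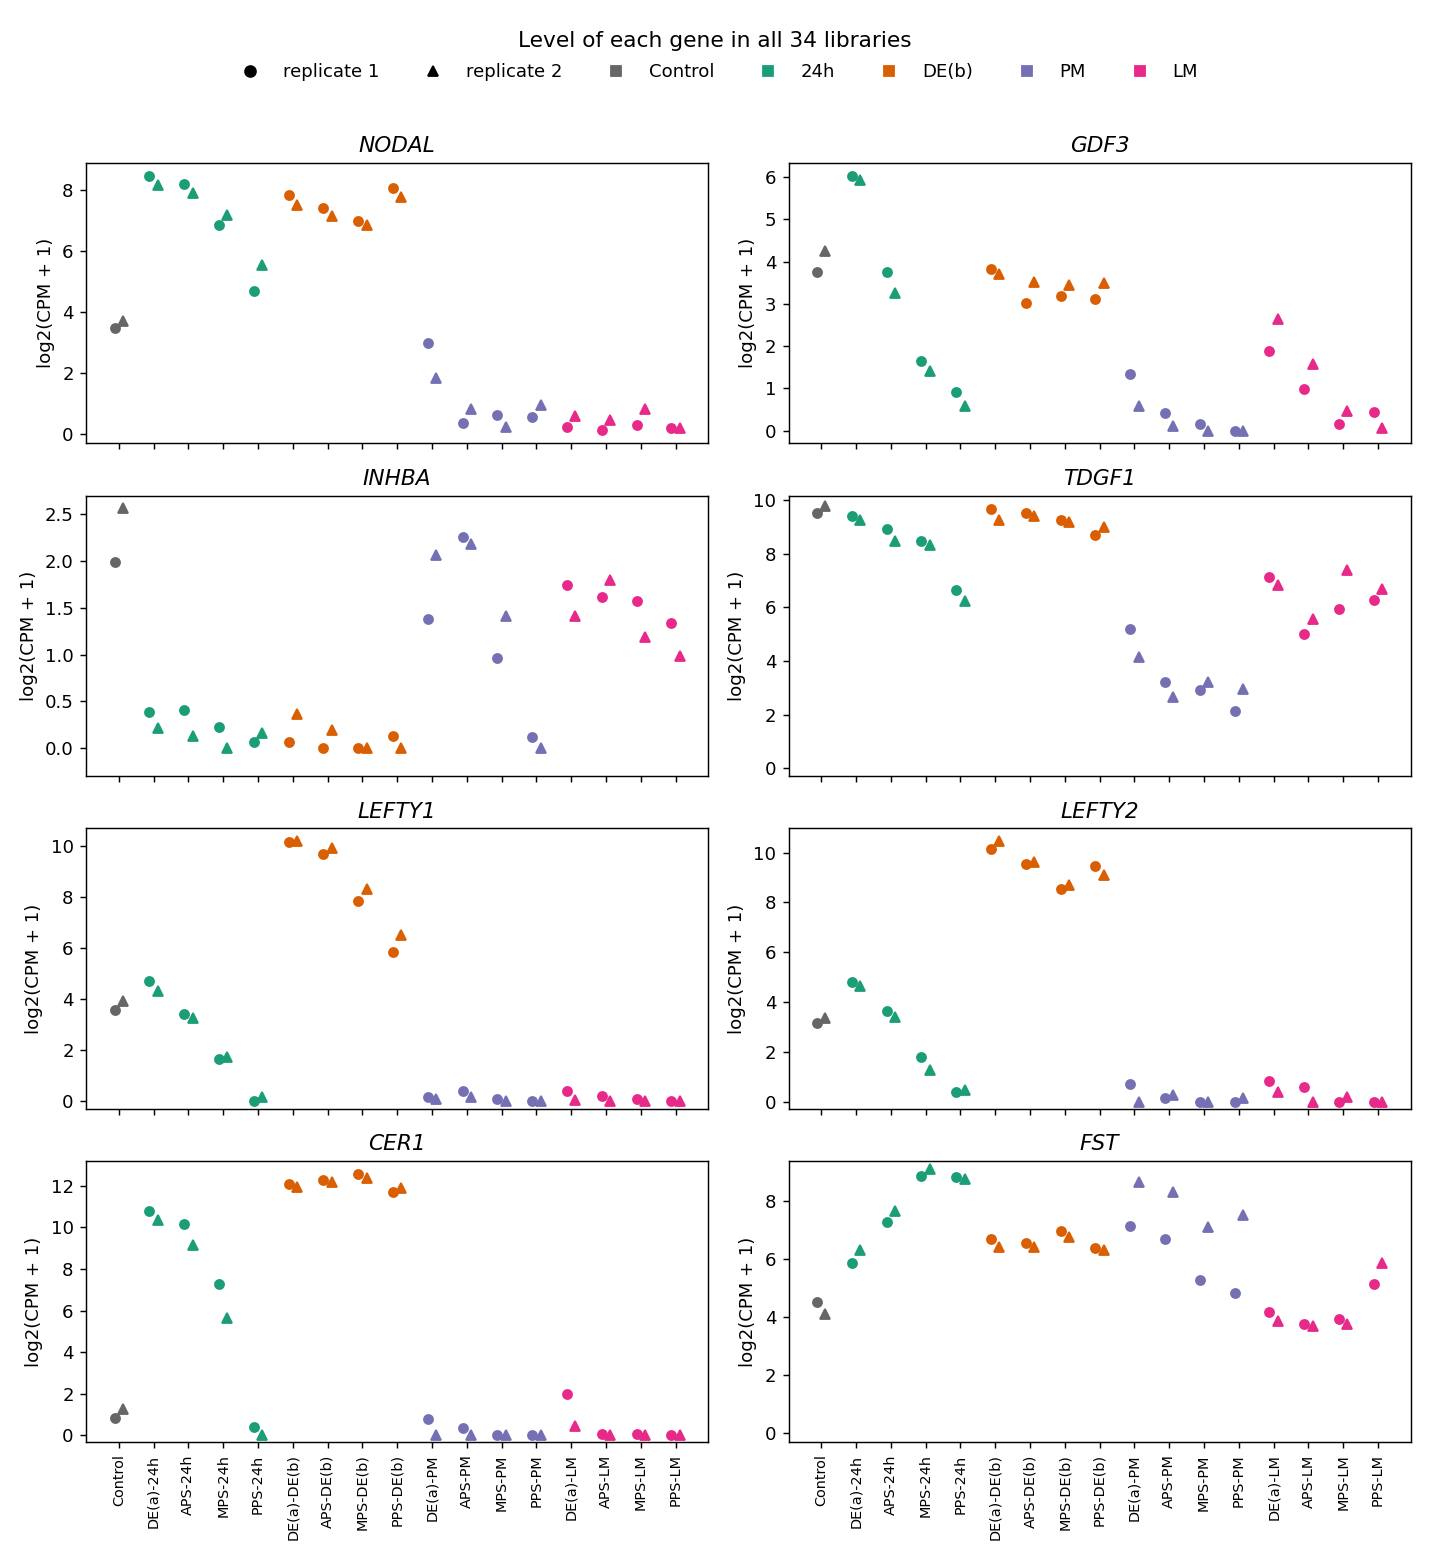
Level of each of the 8 genes in all 34 libraries, as log2(CPM + 1), with conditions along the x axis coloured by stage, circles for replicate 1 and triangles for replicate 2. NODAL, LEFTY1, LEFTY2 and CER1 are high in all 8 DE(b) libraries and lie near 0 in nearly all PM and LM libraries, while FST stays above 11 CPM everywhere.

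After 1 day, the ligand NODAL and the antagonist FST were above Control in all 4 mixes, and INHBA was below it in all 4. NODAL, GDF3, TDGF1, LEFTY1, LEFTY2 and CER1 had their highest 24 h level in DE(a) and their lowest in PPS, and FST was highest in MPS. Of the 8 genes, 7 were called in DE(a) (6 higher, 1 lower) where 19.0% of all genes were called, 4 in APS (background 24.5%), all 8 in MPS (30.0%) and 7 in PPS (29.8%). In MPS and PPS 5 members each were lower than Control. These comparisons share the same 2 Control libraries.

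NODAL stood at 10.3 and 12.1 CPM in the Control libraries. It reached 356 and 288 CPM in DE(a)-24h, 292 and 240 in APS-24h, 117 and 144 in MPS-24h, and 24.7 and 45.9 in PPS-24h. Each 24 h library exceeded both Controls, PPS included, although the PPS mix held no activin. The log2FC against Control was 4.94 ± 0.41 in DE(a) (adjusted p = 1.01e-08), 4.65 ± 0.40 in APS (1.32e-08), 3.64 ± 0.39 in MPS (1.91e-07) and 1.68 ± 0.37 in PPS (0.00128).

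GDF3, a Nodal-like ligand of pluripotent cells, was at 12.5 and 18.1 CPM in Control. It was at 64.5 and 59.8 CPM in DE(a)-24h, 12.6 and 8.56 in APS-24h, 2.14 and 1.67 in MPS-24h, and 0.887 and 0.503 in PPS-24h. DE(a) was thus above Control, APS overlapped it, and MPS and PPS lay below. The log2FC were 2.12 ± 0.51 in DE(a) (adjusted p = 0.00485, but 0.0801 without Control replicate 1), −0.46 ± 0.50 in APS (0.575), −2.91 ± 0.55 in MPS (0.000312) and −4.43 ± 0.61 in PPS (1.04e-05).

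INHBA, the subunit of activin A, was a low transcript, at 2.98 and 4.95 CPM in Control and no higher than 0.331 CPM in any 24 h library. It was lower than Control in each mix, with log2FC of −3.94 ± 0.97 in DE(a) (adjusted p = 0.00535), −4.12 ± 0.97 in APS (0.00305) and −5.26 ± 1.06 in MPS (0.000584). PPS-24h was at the floor, at least 24.1-fold lower than Control (adjusted p = 0.000632). The DE(a) and APS calls were lost without replicate 2 of the mix (0.0723 and 0.0576).

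TDGF1, abundant in Control at 738 and 877 CPM, was at 680 and 609 CPM in DE(a)-24h, 484 and 357 in APS-24h, 354 and 319 in MPS-24h, and 99.3 and 75.1 in PPS-24h. All 8 libraries were below both Controls. The fall was called in MPS (log2FC −1.17 ± 0.38, adjusted p = 0.024) and in PPS (−3.19 ± 0.41, 3.37e-06), but not in DE(a) (−0.23 ± 0.38, 0.772) or APS (−0.86 ± 0.38, 0.11; 0.023 with only the libraries compared, the spread then taken from those alone). The MPS call was lost without Control replicate 2 (0.124), MPS-24h replicate 1 (0.0831) or MPS-24h replicate 2 (0.131).

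Of the antagonists, LEFTY1 and LEFTY2 went down along the mixes. LEFTY1 was at 10.96 and 14.3 CPM in Control, 25.2 and 19.2 in DE(a)-24h, 9.58 and 8.68 in APS-24h, 2.14 and 2.31 in MPS-24h, and 0 and 0.12 in PPS-24h. LEFTY2 was at 7.79 and 9.21 CPM in Control, then 26.8 and 24.3, 11.4 and 9.54, 2.45 and 1.38, and 0.296 and 0.361 CPM in the same order. DE(a) was the only mix in which either was called higher, by log2FC 0.91 ± 0.29 for LEFTY1 (adjusted p = 0.0294) and 1.68 ± 0.38 for LEFTY2 (0.00317). The LEFTY1 call was lost without Control replicate 1 (0.236), Control replicate 2 (0.0526) or DE(a)-24h replicate 1 (0.238), and the LEFTY2 call without Control replicate 1 (0.0513). LEFTY2 in APS-24h was above both Control libraries but not called (0.38 ± 0.38, 0.538). LEFTY1 in PPS-24h was at the floor, at least 76.8-fold lower than Control (adjusted p = 6.22e-09), and LEFTY2 was lower by log2FC −4.65 ± 0.60 (5.28e-06).

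CER1 showed the widest range. It was at 0.813 and 1.44 CPM in Control, 1796 and 1320 in DE(a)-24h, 1160 and 570 in APS-24h, 156 and 49.4 in MPS-24h, and 0.346 and 0 in PPS-24h. The 3 mixes with activin lay far above Control, with log2FC of 10.54 ± 0.86 (adjusted p = 3.86e-08), 9.68 ± 0.84 (5.48e-08) and 6.63 ± 0.76 (1.69e-06), while PPS was not called (−2.49 ± 1.29, 0.16). The replicates of MPS-24h differed by more than those of most genes, with a ratio as far from 1 in 0.637% of tested genes.

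FST moved the other way from DE(a) to MPS. It was at 22.0 and 16.4 CPM in Control, 57.1 and 78.3 in DE(a)-24h, 156 and 202 in APS-24h, 464 and 549 in MPS-24h, and 453 and 429 in PPS-24h. The log2FC against Control were 1.92 ± 0.66 (adjusted p = 0.0441), 3.30 ± 0.69 (0.000911), 4.82 ± 0.73 (2.28e-05) and 4.54 ± 0.72 (4.72e-05). The DE(a) call was lost whichever of its 4 libraries was left out (adjusted p = 0.0739 to 0.229).

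**Figure D2:**
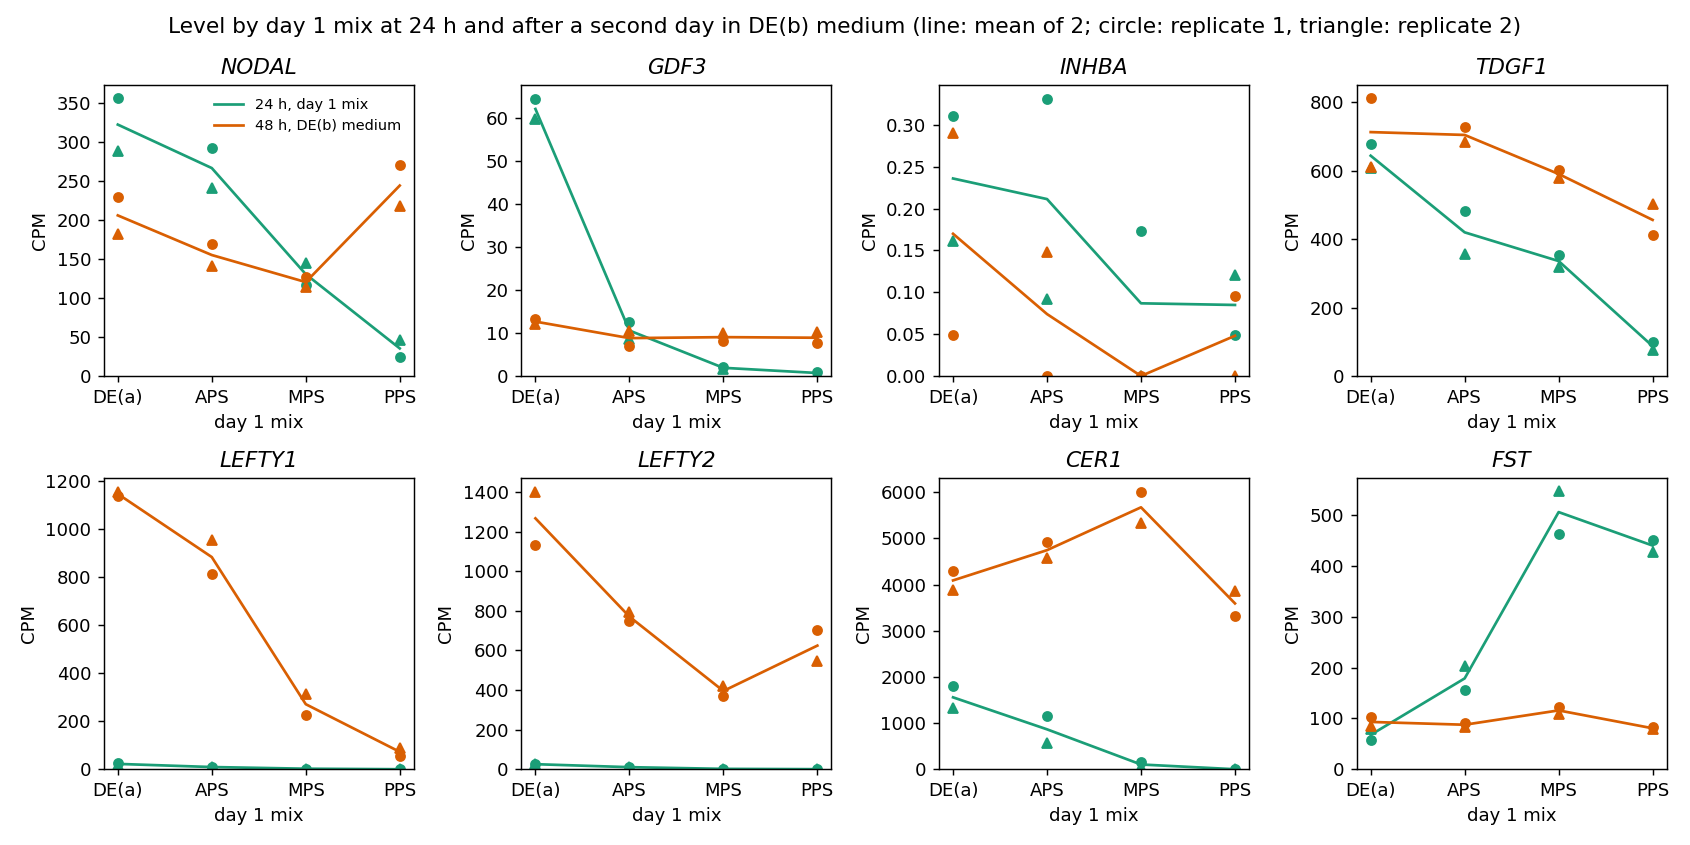
CPM of each gene by day 1 mix, at 24 h (green) and after a second day in DE(b) medium (orange), with lines through the means of 2 libraries. At 24 h the levels of NODAL, GDF3, TDGF1 and CER1 drop from DE(a) to PPS, and FST rises from DE(a) to MPS. In DE(b) medium PPS cells reach the NODAL levels of the other mixes, and LEFTY1 keeps its decline. CER1 there is at 3329 and 3856 CPM in PPS cells, just below the other mixes.

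A test of any difference among the 4 mixes at 24 h called 7 of the 8 genes (background 18.8%), all but INHBA (adjusted p = 0.659). Neighbouring mixes were then compared. From DE(a) to APS, GDF3 fell by 2.57 on the log2 scale (SE 0.52, adjusted p = 0.0155) and LEFTY1 by 1.30 (SE 0.29, 0.0385), 2 calls against a background of 0.732%. Both were lost whichever of the 4 libraries was left out (adjusted p up to 0.379 for GDF3 and 0.487 for LEFTY1). The LEFTY1 call was also lost with only the libraries compared (0.0914). LEFTY2 was not called (−1.30, 0.181) but was by DESeq2 (2.14e-05). From APS to MPS, the step that adds BMP4 and raises CHIR99021, 4 genes fell (background 2.93%): LEFTY1 (log2FC −2.02 ± 0.33, adjusted p = 0.0011), LEFTY2 (−2.42 ± 0.44, 0.00264), CER1 (−3.05 ± 0.59, 0.00531) and GDF3 (−2.45 ± 0.54, 0.0127). The CER1 call was lost in DESeq2 (0.178), with only the libraries compared (0.0948), and without APS-24h replicate 1 (0.0643) or MPS-24h replicate 2 (0.101), and the LEFTY2 call without MPS-24h replicate 2 (0.071). GDF3 was not called without APS-24h replicate 1 (0.111) or without MPS-24h replicate 1 (0.099) or 2 (0.169).

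From MPS to PPS, where activin is left out, 5 genes fell (background 6.14%). NODAL fell by 1.96 on the log2 scale (SE 0.36, adjusted p = 0.00158), TDGF1 by 2.02 (SE 0.39, 0.00289), LEFTY2 by 2.61 (SE 0.69, 0.0262) and CER1 by 9.13 (SE 0.95, 8.42e-06). LEFTY1 was at least 13.5-fold lower in PPS (0.00014). FST was not called (log2FC −0.28 ± 0.62, 0.857). With only the libraries compared, LEFTY1 (0.0671) and LEFTY2 (0.127) were uncalled. LEFTY2 was not called without MPS-24h replicate 1 (0.322), PPS-24h replicate 1 (0.107) or PPS-24h replicate 2 (0.17), nor TDGF1 without PPS-24h replicate 2 (0.0803).

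After a second day in DE(b) medium, with activin, LEFTY1 and LEFTY2 were higher than at 24 h in cells of all 4 mixes, and CER1 in those of APS, MPS and PPS, with DE(a) short of the threshold. In the fit over all libraries NODAL and TDGF1 were called higher in PPS cells alone, which had received no activin on day 1. Called against their own 24 h cells were 3 genes for DE(a) (background 28.0%), 3 for APS (30.6%), 5 for MPS (27.9%) and 7 for PPS (20.5%).

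LEFTY1 in DE(b) medium stood at 1137 and 1152 CPM after DE(a), 812 and 952 after APS, 226 and 314 after MPS, and 55.8 and 88.9 after PPS. The 4 pairs of libraries did not overlap and followed the order of the mixes. The rise over 24 h was log2FC 5.62 ± 0.33 (adjusted p = 1.44e-09), 6.55 ± 0.35 (1.52e-10) and 6.86 ± 0.36 (1.67e-10) for DE(a), APS and MPS, and at least 440-fold for PPS (4.21e-10).

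LEFTY2 stood at 1134 and 1400 CPM after DE(a), 749 and 793 after APS, 371 and 420 after MPS, and 703 and 546 after PPS. PPS cells thus lay above MPS cells, opposite to LEFTY1. The rise over 24 h was 5.56 ± 0.43, 6.16 ± 0.44, 7.61 ± 0.49 and 10.92 ± 0.60 on the log2 scale, with an adjusted p of 2.84e-08 or lower in each.

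Because of this, LEFTY2 made up 92.6% and 86.0% of the summed LEFTY1 and LEFTY2 counts in PPS-DE(b), against 49.9% and 54.9% after DE(a), 48.0% and 45.5% after APS and 62.1% and 57.2% after MPS. In Control it was 41.6% and 39.2%. The coding sequences of both genes are 1098 bases long and 97.2% identical (31 differing bases), and 23.7% of the 75-base stretches of the LEFTY1 transcript also occur in LEFTY2, so part of the reads had to be shared out by the estimate of counts.

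**Figure D3:**
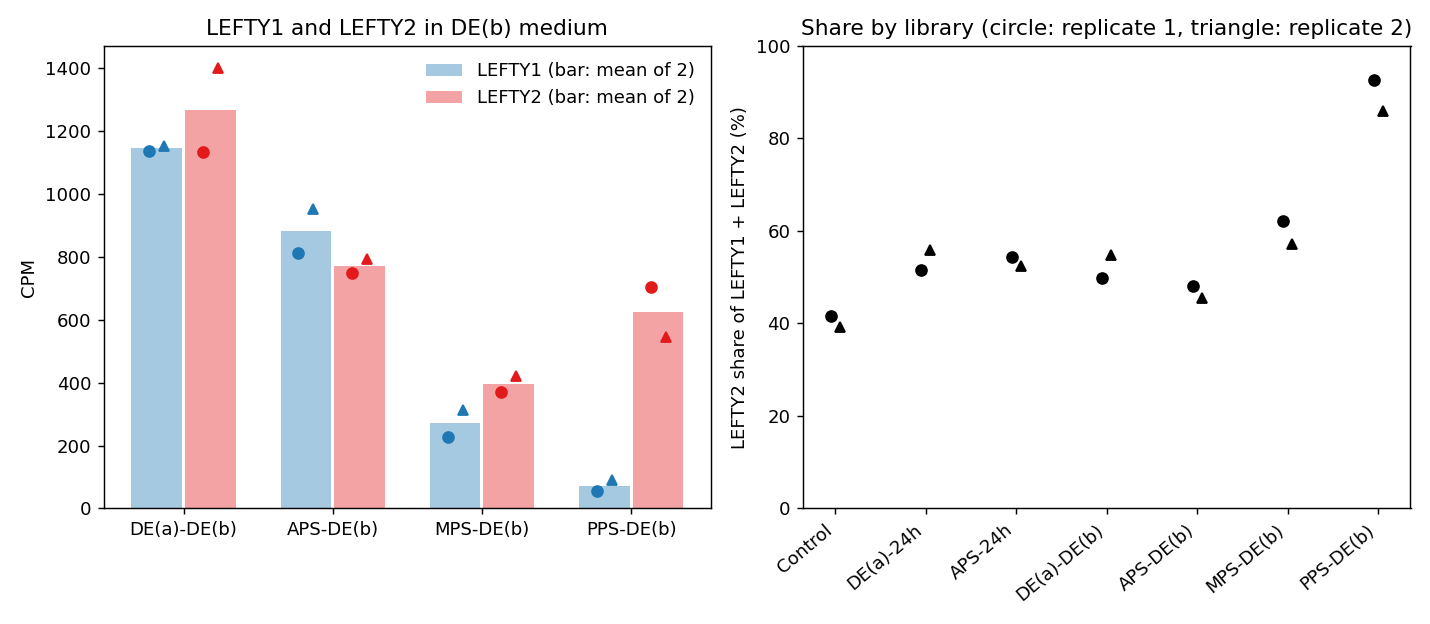
Left, CPM of LEFTY1 and LEFTY2 in the 4 conditions with DE(b) medium (bars, mean of 2 libraries, with each library as a point). Right, the LEFTY2 share of the summed counts in percent, which is 39.2 to 62.1 in every condition drawn except PPS-DE(b), at 92.6 and 86.0.

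CER1 in DE(b) medium was at 4296 and 3886 CPM after DE(a), 4924 and 4570 after APS, 6006 and 5343 after MPS, and 3329 and 3856 after PPS. In PPS cells it had been at or near 0 a day before, and its log2FC over 24 h was 14.21 ± 1.03 (adjusted p = 1.41e-08). The log2FC was 5.71 ± 0.66 for MPS (3.21e-06), 2.41 ± 0.57 for APS (0.00326) and 1.32 ± 0.55 for DE(a) (0.0832, not called). Both DE(a)-DE(b) libraries were above both DE(a)-24h libraries, and this difference was called with a replicate block (1.35, 0.0225) and with only the libraries compared (1.31, 0.00572). DESeq2 did not call the APS rise (0.13), nor did edgeR without APS-24h replicate 2 (0.0514).

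NODAL in DE(b) medium was at 229 and 182 CPM after DE(a), 169 and 140 after APS, 126 and 114 after MPS, and 270 and 218 after PPS. Over 24 h it rose in PPS cells (log2FC 2.83 ± 0.37, adjusted p = 6.87e-06) and was not called in the others (−0.72 ± 0.34, −0.83 ± 0.34 and −0.18 ± 0.34), except in APS cells with a replicate block (0.0492) or only the libraries compared (0.0184). GDF3 came to a narrow range of 7.07 to 13.2 CPM in the 8 libraries, by a fall in DE(a) cells (−2.37 ± 0.52, 0.00169) and rises in MPS (2.18 ± 0.54, 0.00444) and PPS cells (3.71 ± 0.60, 0.000124). The MPS rise of GDF3 was not called without MPS-24h replicate 2 (0.0525).

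TDGF1 in DE(b) medium was at 814 and 612 CPM after DE(a), 727 and 683 after APS, 602 and 579 after MPS, and 411 and 502 after PPS. Of the changes from 24 h, the rise in PPS cells was called (log2FC 2.43 ± 0.40, adjusted p = 0.000115). Those in APS (0.70, 0.175) and MPS cells (0.74, 0.157) were called with only the libraries compared (0.047 and 0.00502). FST in DE(b) medium was between 78.6 and 123 CPM in all 8 libraries, after a fall of −2.19 ± 0.65 in MPS (0.014) and −2.41 ± 0.65 in PPS cells (0.0108). It was not called in DE(a) (0.39 ± 0.63, 0.698) or APS cells (−1.07 ± 0.63, 0.213), though the APS difference was called with only the libraries compared (0.00657). The FST fall in MPS was lost without MPS-24h replicate 2 (0.0555) or MPS-DE(b) replicate 1 (0.0719) or 2 (0.104), and that in PPS without PPS-DE(b) replicate 1 (0.082) or 2 (0.0843). INHBA stayed at 0.291 CPM or lower, and 7 of the 8 libraries held 3 or fewer counts.

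Across the mixes within DE(b) medium, LEFTY1 (adjusted p = 5.66e-08) and LEFTY2 (0.0124) of the 8 genes differed, against a background of 16.6%. With only the libraries compared, NODAL (0.129, then 0.013) and CER1 (0.856, then 0.0409) were called too. The LEFTY2 call was lost without DE(a)-DE(b) replicate 2 (0.0845) or MPS-DE(b) replicate 1 (0.0716). The endoderm markers summed to 647 to 803 CPM after DE(a), 603 to 778 after APS, 441 to 640 after MPS and 130 to 264 after PPS, and the node and organizer markers to 173 to 241, 133 to 161, 75.1 to 103 and 28.6 to 46.5 CPM. Within the endoderm list SOX17 was not lower after MPS, at means of 385, 459.5, 472 and 168.2 CPM in the order of the mixes. The means of FOXA2, CXCR4 and HHEX fell along the mixes. The node and organizer list (GSC, CHRD, NOTO and FOXA2) shares FOXA2 with the endoderm list, so these sums are not independent. Of its other genes, GSC fell along the mixes, at means of 95.79, 78.51, 58.35 and 28.03 CPM. CHRD did not follow the order (5.997, 2.639, 3.004 and 2.913 CPM), and NOTO was at the floor in DE(b) medium. The part of these markers in the LEFTY1 order was not tested.

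With DE(a)-DE(b), the standard endoderm protocol, as reference, none of the 8 genes was called for APS followed by DE(b) by edgeR or DESeq2 (background 0.469%), and 0 had an unadjusted p under 0.05 (edgeR, 0.058 to 0.991). The MPS cells were lower in LEFTY1 (log2FC −2.08 ± 0.28, adjusted p = 8.21e-05) and LEFTY2 (−1.68 ± 0.36, 0.0063), 2 calls against 5.59%. The LEFTY2 call was lost without DE(a)-DE(b) replicate 2 (0.0606) or MPS-DE(b) replicate 1 (0.0953) or 2 (0.0603). PPS-DE(b) was lower in LEFTY1 (−3.94 ± 0.30, 2.86e-08; background 17.4%), the 1 call of the fit over all libraries. LEFTY2 had −0.98 ± 0.35 (0.0622) and was called lower by DESeq2 (0.000193), with only the libraries compared (0.03) and with a replicate block (0.0257). CER1 had −0.15 ± 0.54 (0.903) and NODAL 0.29 ± 0.34 (0.627).

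PPS-DE(b) against MPS-DE(b), cells that differed by activin on day 1, gave 1 call (background 5.93%), LEFTY1 at −1.86 ± 0.28 (adjusted p = 0.000324). LEFTY2 had 0.70 ± 0.35 (0.311) and NODAL 1.06 ± 0.35 (0.0793). With only the libraries compared, NODAL (0.00653), LEFTY2 (0.0269), CER1 (−0.63, 0.0228) and FST (−0.50, 0.0316) were called as well. LEFTY2 was also called by DESeq2 (0.0377) and NODAL with a replicate block (0.0471). With the counts of LEFTY1 and LEFTY2 summed, the difference was 0.10 (0.941), so the LEFTY1 difference does not appear in the sum of these copies.

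In PM and LM medium, both with the receptor inhibitor A-8301, NODAL, LEFTY1, LEFTY2 and CER1 were below 7 CPM in cells of every mix, while FST stayed above Control in PM and INHBA was higher than at 24 h after most mixes. Against their 24 h cells, the PM cultures gave 8 calls for DE(a) (background 23.6%), 7 for APS (25.1%), 8 for MPS (22.6%) and 4 for PPS (20.2%). The LM cultures gave 8 each for DE(a) (32.2%), APS (37.2%) and MPS (31.3%), and 3 for PPS (25.0%). LEFTY1, LEFTY2 and CER1 were already at 0.361 CPM or lower in PPS-24h cells.

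NODAL in PM medium was at 6.97 and 2.58 CPM after DE(a) and below 1 CPM in the other 6 libraries. In LM medium the 8 libraries ran from 0.103 through a median of 0.212 to 0.759 CPM. All 16 libraries lay below Control. NODAL fell from 24 h by −6.18 ± 0.44 (DE(a)), −9.03 ± 0.53 (APS), −8.60 ± 0.56 (MPS) and −5.66 ± 0.49 (PPS) on the log2 scale in PM, each with an adjusted p of 4.61e-08 or lower. In LM the log2FC were −9.82 ± 0.56, −10.14 ± 0.59 and −7.96 ± 0.53 after DE(a), APS and MPS (adjusted p of 4.11e-10 or lower), and after PPS the level was at least 220-fold lower than at 24 h (7.36e-09).

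LEFTY1 did not exceed 0.327 CPM in PM or 0.318 in LM, LEFTY2 did not exceed 0.641 and 0.766, and CER1 did not exceed 0.752 and 2.94. CER1 was at 0 in 6 of the 8 PM and 4 of the 8 LM libraries, and its highest value there was DE(a)-LM replicate 1. Their lowest DE(b) library stood 171 (LEFTY1), 579 (LEFTY2) and 4.43e+03 (CER1) times above the highest PM library, and 175, 484 and 1.13e+03 times above the highest LM library. For NODAL these ratios were 16.4 and 150.

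GDF3 ran from 0 to 1.55 CPM in PM. In LM it was at 2.70 and 5.30 CPM after DE(a), 0.989 and 1.99 after APS, and lower after MPS and PPS. TDGF1 kept a measurable level in both: in PM it was at 35.5 and 16.7 CPM after DE(a), 8.22 and 5.28 after APS, 6.59 and 8.36 after MPS, and 3.37 and 6.67 after PPS. In LM it was at 141 and 113, 31.4 and 46.8, 61.0 and 168, and 75.8 and 102 CPM. Each LM library was higher than both PM libraries of the same mix.

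From 24 h to PM, TDGF1 changed by −4.75 ± 0.45, −6.06 ± 0.48, −5.59 ± 0.47 and −4.15 ± 0.45 on the log2 scale after DE(a), APS, MPS and PPS, with an adjusted p of 9.17e-07 or lower. From 24 h to LM its log2FC were −2.47 ± 0.40, −3.46 ± 0.42 and −1.54 ± 0.39 after DE(a), APS and MPS (5.99e-05, 1.15e-06 and 0.00391) and 0.08 ± 0.38 after PPS (0.925). The MPS fall was −0.95 (0.1) without MPS-LM replicate 1. GDF3 fell in PM after every mix and in LM after DE(a), APS and MPS, by −4.06 ± 0.56, −2.87 ± 0.56 and −2.86 ± 0.69 in LM (1.19e-05, 0.000377 and 0.00318), the last uncalled without MPS-LM replicate 1 (0.0613).

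INHBA in PM was at 1.60 and 3.20 CPM after DE(a), 3.80 and 3.54 after APS, 0.946 and 1.67 after MPS, and 0.0864 and 0 after PPS. In LM it ran from 0.984 to 2.47 CPM. It was higher than in the 24 h cells after DE(a), APS and MPS in PM (log2FC 3.19 ± 0.95, 3.98 ± 0.96 and 3.66 ± 1.04, adjusted p = 0.0182, 0.00408 and 0.0139) and after every mix in LM. The MPS-PM call was lost with only the libraries compared (0.0579). The PM calls were lost without DE(a)-24h replicate 1 or 2 or DE(a)-PM replicate 2 (0.0692 to 0.134), without APS-24h replicate 2 (0.0655), and without MPS-24h or MPS-PM replicate 2 (0.129 and 0.0852).

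In LM the log2FC of INHBA over 24 h were 2.93 ± 0.95, 3.35 ± 0.95 and 4.06 ± 1.04 after DE(a), APS and MPS (adjusted p = 0.0222, 0.0085 and 0.00491), and after PPS the level was at least 7.63-fold higher (0.011). Each of these 4 calls was also lost without some library: DE(a)-24h replicate 1 or 2 or DE(a)-LM replicate 1 (0.071 to 0.147), APS-24h replicate 2 (0.0959), MPS-24h replicate 2 (0.062), and PPS-24h or PPS-LM replicate 1 (0.0938 and 0.0577).

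FST was at 139 and 400 CPM in DE(a)-PM, 102 and 316 in APS-PM, 37.8 and 137 in MPS-PM, and 27.3 and 184 in PPS-PM. Replicate 2 exceeded replicate 1 in all 4 conditions, by 2.88, 3.11, 3.62 and 6.74 times. Ratios that far from 1 were seen in 1.69%, 0.933%, 0.604% and 0.302% of tested genes. Replicates 1 and 2 came in separate tables. TBXT, a streak and tail bud gene, moved likewise by 2.11, 2.53, 2.06 and 1.39 times, and MIXL1, a streak gene, by 2.42, 1.95, 2.23 and 1.61 times, while TBX6 of paraxial mesoderm kept ratios of 0.945 to 1.16. EOMES, the other gene of the streak list, went the other way in DE(a)-PM, APS-PM and MPS-PM. It was at 24.4 and 2.64, 6.93 and 1.32, and 1.51 and 0.446 CPM in replicates 1 and 2. In PPS-PM it was at 0.389 and 0.571 CPM. The part of these genes in the FST spread was not tested.

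**Figure D4:**
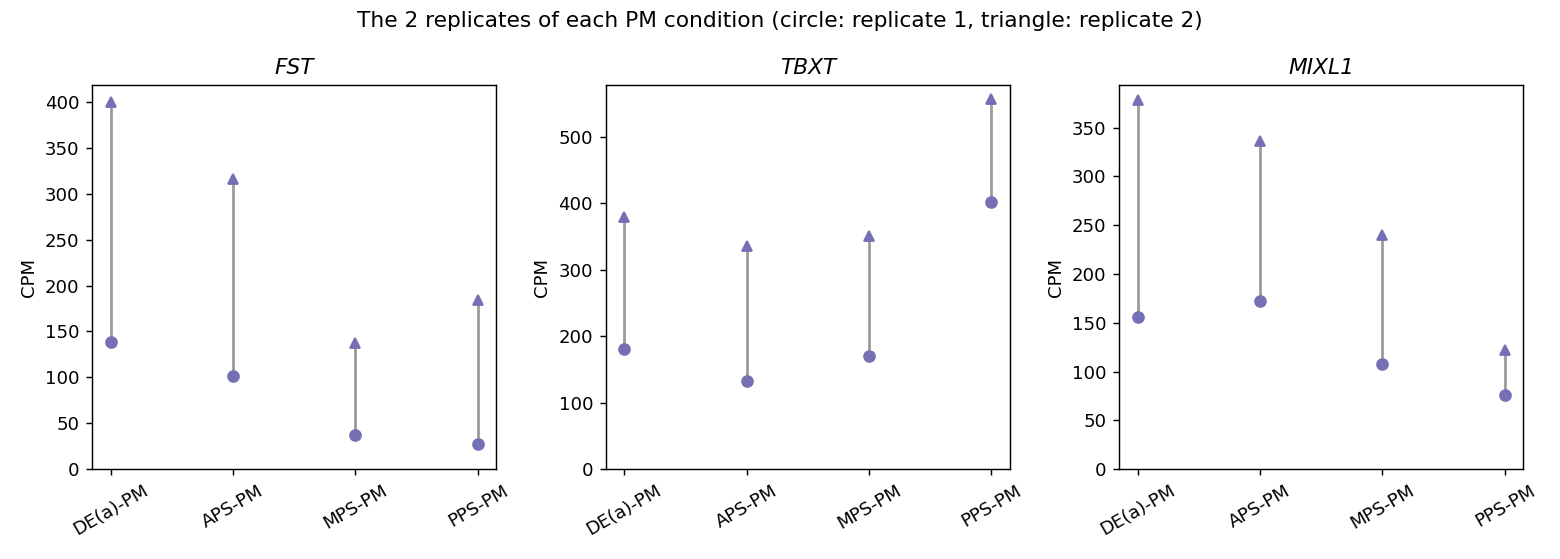
CPM of FST, TBXT and MIXL1 in the 4 PM conditions, circles for replicate 1 and triangles for replicate 2, joined by a line. Replicate 2 is higher in all 12 pairs drawn, most of all for FST in PPS-PM. EOMES, also on the streak list, is not drawn and was lower in replicate 2 of DE(a)-PM, APS-PM and MPS-PM.

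Against 24 h cells, FST in PM was higher after DE(a) (log2FC 1.87 ± 0.64, adjusted p = 0.0378) and lower after MPS (−2.63 ± 0.66, 0.00546) and PPS (−2.08 ± 0.64, 0.0248; uncalled at 0.16 with only the libraries compared). These rested on single libraries: without DE(a)-PM replicate 2 the first was 0.90 (0.47), and it was also lost without DE(a)-24h replicate 1 (0.209) or 2 (0.101). The second was −1.98 without MPS-PM replicate 1 (0.0896), and the last −1.28 without PPS-PM replicate 1 (0.183) and uncalled without PPS-24h replicate 1 (0.0637) or 2 (0.0682). In LM, FST was at 11.8 to 17.2 CPM after DE(a), APS and MPS, around the Control level, and at 34.6 and 57.2 CPM after PPS. It fell from 24 h in cells of every mix, by −2.26 ± 0.67, −3.92 ± 0.71, −5.25 ± 0.75 and −3.21 ± 0.68, with adjusted p of 0.0123 or lower. The DE(a) fall was lost without DE(a)-24h replicate 2 (0.0646), DE(a)-LM replicate 1 (0.0578) or DE(a)-LM replicate 2 (0.0938).

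Taking the 8 libraries of each medium together, DE(b) against Control gave 6 calls (5 higher, 1 lower, background 45.3%), PM 8 (1 higher, 7 lower, 45.0%) and LM 6 (all lower, 48.9%). NODAL was above Control in DE(b) (log2FC 4.00 ± 0.36, adjusted p = 9.67e-09) and below it in PM (−3.64 ± 0.32, 4.22e-09) and LM (−5.17 ± 0.36, 9.09e-11). FST was the single gene higher in PM (2.97 ± 0.62, 0.000424), and in LM it did not differ from Control by more than its error (−0.02 ± 0.51, 1). TDGF1 fell in PM (−6.50 ± 0.27, 5.06e-14) and LM (−3.21 ± 0.26, 1.09e-09). In PM the calls of INHBA (0.101) and CER1 (0.0573), and in LM that of CER1 (0.0818), were lost without Control replicate 2.

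Between media, DE(b) against PM gave 7 calls (6 higher, 1 lower, background 43.0%), and LM against DE(b) 8 (1 higher, 7 lower, 39.6%). NODAL was higher in DE(b) than in PM by 7.64 ± 0.25 on the log2 scale (adjusted p = 4e-16), GDF3 by 6.67 ± 0.41 (2.2e-11) and TDGF1 by 6.13 ± 0.24 (5.14e-15). FST was not called (−0.64 ± 0.31, 0.105), though it was without APS-PM (0.0464), DE(a)-PM (0.0487), MPS-PM (0.0373) or PPS-PM (0.0119) replicate 1. INHBA was lower in DE(b) than in PM (−4.13 ± 0.78, 0.00017), a call lost without PPS-PM replicate 1 (−3.39, 1).

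LM against PM gave 4 calls (2 higher, 2 lower, background 42.0%), although both held the same dose of A-8301. The co-receptor TDGF1 was higher in LM by 3.29 ± 0.21 on the log2 scale (adjusted p = 2.56e-11) and GDF3 by 3.02 ± 0.56 (0.000137). FST was lower in LM by −2.98 ± 0.34 (2.04e-07) and NODAL by −1.53 ± 0.42 (0.00512), the latter uncalled without MPS-PM replicate 1 (0.0875). INHBA was not called (1.05 ± 0.45, 0.0695) but was by DESeq2 (0.0255), with only the libraries compared (0.0191) and without PPS-PM replicate 1 (0.0316). LEFTY1, LEFTY2 and CER1 were too low in both media to compare.

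**Figure D5:**
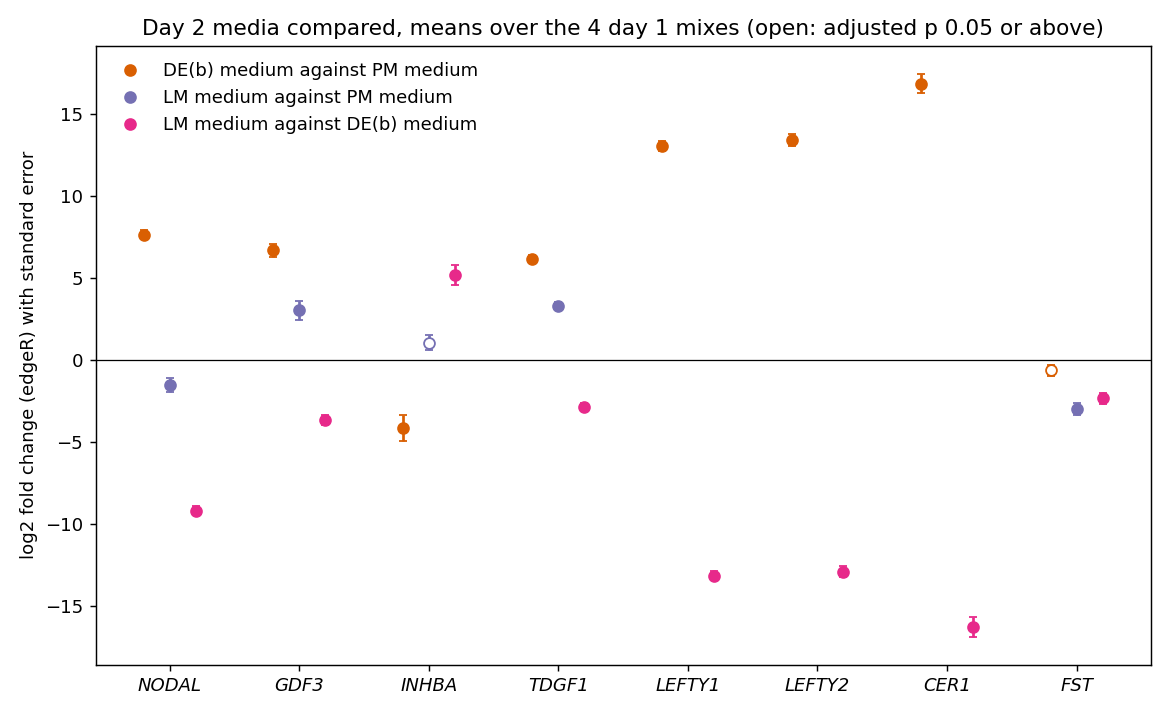
Log2 fold change with its standard error (edgeR) for each gene between day 2 media, as means over the 4 mixes, with open circles where the adjusted p was 0.05 or above. Differences where both media averaged below 1 CPM are left out, and the LEFTY1, LEFTY2 and CER1 points are fitted against levels near 0, so their size depends on the prior count.

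Within PM medium the mixes differed in 4 genes (background 7.47%): NODAL (adjusted p = 0.000104), TDGF1 (0.000961), GDF3 (0.00196) and INHBA (0.00795). The GDF3 and TDGF1 calls were lost without DE(a)-PM replicate 1 (0.0922 and 0.123) and that of INHBA without PPS-PM replicate 2 (0.0979). With only the libraries compared none of the 4 was called (NODAL 0.124, TDGF1 0.093, GDF3 0.258 and INHBA 0.0686), while DESeq2 added LEFTY2 (0.00248), LEFTY1 (0.0218) and CER1 (0.0412). DE(a)-PM exceeded APS-PM, the standard paraxial protocol, in NODAL (log2FC 3.14 ± 0.53, adjusted p = 0.0143; background 0.0559%), which was lost without DE(a)-PM replicate 1 (2.25, 1) or APS-PM replicate 1 (2.63, 0.221) or 2 (4.03, 0.459), and with only the libraries compared (adjusted p = 1). TDGF1 was uncalled there (1.95 ± 0.42, 0.107) but was called by DESeq2 (0.000634) and without DE(a)-PM replicate 2 (2.38, 0.00998). MPS-PM against APS-PM gave no call among the 8 by edgeR or DESeq2 (background 0.447%), at unadjusted p of 0.0567 or above.

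In the fit over all libraries INHBA alone was called in PPS-PM against APS-PM (at least 26.9-fold lower, adjusted p = 0.0019, background 5.25%) and in PPS-PM against MPS-PM (at least 9.61-fold lower, 0.0486, background 1.03%). The first was uncalled when only the libraries compared were fitted (0.0545), and the second in that fit (0.329) and whichever of its 4 libraries was left out (0.0731 to 0.419). DESeq2 also called LEFTY1 (0.0284) and GDF3 (0.0455) lower in PPS-PM against APS-PM. FST in PPS-PM against APS-PM was −0.96 ± 0.63 (0.466), but −2.94 (0.0233) without PPS-PM replicate 2.

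Within LM medium the mixes differed in 3 genes (background 19.6%): GDF3 (adjusted p = 0.000129), TDGF1 (0.0154, but 0.22 without APS-LM replicate 1 and 0.0964 with only the libraries compared) and CER1 (0.0193, but 0.518 without DE(a)-LM replicate 1). FST (0.0615) was called by DESeq2 (0.0253), with only the libraries compared (0.00149) and with a replicate block (0.0406), and LEFTY2 (0.119) by DESeq2 (9.62e-05). Against MPS-LM, the standard lateral protocol, DE(a)-LM gave 2 calls (background 14.4%), GDF3 (log2FC 3.82 ± 0.68, 0.000463) and CER1, at least 10.5-fold higher (0.0473, but 0.483 without DE(a)-LM replicate 1, 0.138 without MPS-LM replicate 1 and 0.285 without MPS-LM replicate 2). DESeq2 also called LEFTY2 there (0.038). APS-LM gave TDGF1 (−1.61 ± 0.39, 0.0218; background 3.79%), with −1.33 (0.36) without APS-LM replicate 1 and −0.67 (0.731) without MPS-LM replicate 2, whose replicates were at 61.0 and 168 CPM. TDGF1 was also uncalled with only the libraries compared (0.151), while GDF3 (2.45, 0.0587) was called by DESeq2 (0.00718). PPS-LM gave none among the 8 by edgeR or DESeq2 (background 5.60%). FST there was 1.76 ± 0.66 (0.153), with an unadjusted p of 0.0145, the only one under 0.05, and was called with only the libraries compared (0.0154). The amnion markers summed to 258 to 364 CPM in PPS-LM against 68 to 99.2 in MPS-LM. They summed to 62.8 to 78.7 CPM in APS-LM and to 186 to 234 in DE(a)-LM. FST was at 34.6 and 57.2 CPM in PPS-LM but at 17.2 and 13.7 in DE(a)-LM. The part of the amnion markers in the FST value was not tested.

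The effect of the mix depended on the medium in 3 of the 8 genes by the interaction test over the 12 conditions with a mix and a medium (background 13.1%). These were NODAL (adjusted p = 0.00402), GDF3 (0.00796) and TDGF1 (0.0133), of which NODAL (0.0673) and TDGF1 (0.0543) were uncalled without DE(a)-PM replicate 1 and GDF3 with only the libraries compared (0.0509). DESeq2 called 7 of the 8, for which the share over all genes is not given here.

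By mean level, NODAL and GDF3 were highest in DE(a)-24h, INHBA and TDGF1 in Control, LEFTY1 and LEFTY2 in DE(a)-DE(b), CER1 in MPS-DE(b) and FST in MPS-24h. In replicate 1 alone INHBA was highest in APS-PM and TDGF1 in DE(a)-DE(b). Of the 16 neighbouring steps in each gene's order of the 17 conditions, the libraries of both conditions were apart in 8 for LEFTY1, LEFTY2 and CER1, 7 for TDGF1, 6 for FST, 5 for NODAL, 4 for GDF3 and 2 for INHBA. NODAL in DE(a)-24h, APS-24h, PPS-DE(b) and DE(a)-DE(b) (322, 266, 244 and 206 CPM) did not differ from neighbour to neighbour beyond the spread of the libraries.

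The other pathway genes were taken from a list of 32 ligands, receptors, transducers, inhibitors and response genes, of which 29 passed the filter. At 24 h against Control, 9, 10, 14 and 14 of the 29 were higher in DE(a), APS, MPS and PPS and 4 were lower in each, with list medians of 0.24, 0.25, 0.71 and 0.63 on the log2 scale against 0.03, 0.02, 0.00 and 0.01 over all genes. The shares of all genes called there were 19.0%, 24.5%, 30.0% and 29.8%. GSC, an organizer factor, was at least 513-fold above Control in DE(a)-24h, and EOMES, an endoderm and streak factor, was higher in APS-24h by 10.63 ± 0.95 (adjusted p = 1.97e-08). From MPS to PPS, 7 of the 29 fell and 1 rose (background 6.14%, list median −0.07 against 0.00 over all genes), with the largest fall in GSC (−5.90 ± 0.43, 4.5e-08).

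DE(b) medium was higher than PM in 15 of the 29 genes and lower in 3 (background 43.0%, list median 0.64 against −0.01 over all genes), led by EOMES (7.78 ± 0.40, adjusted p = 4.21e-13). LM was higher than PM in 14 and lower in 7 (background 42.0%, list median 0.28 against 0.00 over all genes). The largest difference upward was CFC1, an EGF-CFC co-receptor like TDGF1, at a mean of 87.9 CPM in LM, 0.756 in PM and 1.24 in DE(b) (LM against PM 6.28 ± 0.49, 5.65e-10), and downward MIXL1 (−6.49 ± 0.27, 1.29e-14). Within LM, CFC1 averaged 188.6 CPM after DE(a) and 128.5 after APS, but 10.98 after MPS and 23.58 after PPS. CFC1 has a near-identical copy, CFC1B, so its count is uncertain. PMEPA1, an inhibitor induced by TGF-β signals, fell in PPS cells moved to PM (−6.06 ± 0.27, 5.78e-12).

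Over the 34 libraries, the genes whose log2(CPM + 1) followed each member most closely were PMEPA1 for NODAL (Pearson r = 0.960), PDGFB for GDF3 (0.891), MAPK8IP2 for INHBA (0.810), RAB17 for TDGF1 (0.892) and LEFTY2 for LEFTY1 (0.980). LHX1, a factor of the organizer and anterior endoderm with a further row in the tables, came closest to CER1 (0.960), and AXIN2, a Wnt target, to FST (0.887). After LEFTY1, PIK3R5 came closest to LEFTY2 (0.960). These neighbours depended on the replicate. With replicate 1 alone, 0 of the 3 closest genes were shared with the full set for FST and INHBA, and with replicate 2 alone 0 of 3 for INHBA and TDGF1. The candidates were the 12263 genes that reached a mean of 10 CPM in some condition. These points share conditions and libraries, so the correlations describe the 17 conditions and carry no test.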

How the data were processed

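Poly(A) RNA of 34 libraries, 2 for each of 17 conditions, was sequenced by the authors as stranded paired-end reads (2 reads of 75 bases). The authors quantified reads on GRCh38 with Salmon 1.10.2 and summed them to genes in R 4.4.2, so the deposited values are estimated counts, not normalized, and need not be whole. They were rounded here. Multi-mapping reads are divided by an estimate, which touches LEFTY1, LEFTY2 and TDGF1. edgeR 4.0.16 in R 4.3.3 used TMM scaling, its filter on low counts by condition (17895 genes kept), 1 mean per condition over all libraries and Benjamini-Hochberg adjustment at 0.05, over 42 comparisons. The fit had a common dispersion of 0.0611 and left 17 degrees of freedom. Alternatives were DESeq2 1.42.0, RLE scaling, no filter, summed copies, only the libraries compared, a replicate block and each library left out. Scripts were tested on simulated data. Totals of 15522780 to 23439799 counts limit what low genes can show, and floors (3 counts) cover counting error only. The 4 rows of POU5F1 were summed. Genes named beyond them are the 3 closest in pattern per member, the largest rise and fall of the pathway list per comparison, and markers. The members and lists were chosen with earlier results of these data known. Protein sequences, and promoters of LEFTY1 and LEFTY2, were not used here.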

Additional observations from a re-analysis of the deposited data

Results flagged for a closer look

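The effect of the day 1 mix differed between day 2 media in NODAL, GDF3 and TDGF1, with adjusted p of 0.00402, 0.00796 and 0.0133 in edgeR's interaction test over the 12 conditions with a mix and a medium. NODAL averaged 4.77 CPM in DE(a)-PM and 0.527 in APS-PM, against 206 and 155 CPM for the same mixes in DE(b) and 0.358 and 0.24 in LM. GDF3 averaged 4.00 CPM in DE(a)-LM and 0.248 in MPS-LM, against 12.7 and 9.04 in DE(b). TDGF1 averaged 26.1 CPM in DE(a)-PM and 6.75 in APS-PM, 713 and 705 in DE(b), and 127 and 39.1 in LM. The other genes were at 0.081 (INHBA), 0.0807 (CER1), 0.103 (FST), 0.529 (LEFTY2) and 0.841 (LEFTY1). The NODAL and TDGF1 calls depended on DE(a)-PM replicate 1, and the GDF3 call on the fit over all libraries. In DE(a)-PM replicates 1 and 2, NODAL was at 6.97 and 2.58 CPM and TDGF1 at 35.55 and 16.7. The endoderm markers SOX17 and FOXA2 were at 72.7 and 33.0 CPM in replicate 1, against 3.75 and 3.37 in replicate 2. Of the same list, CXCR4 went the other way (156 and 244 CPM) and HHEX was at 0.329 and 0.393. The list summed to 262 and 251 CPM. SOX17 was also at 94.8 and 69.6 CPM in DE(a)-LM, where NODAL averaged 0.358 CPM and TDGF1 127. The part of these markers in the interaction was not tested. With 2 libraries per condition, groups were too small to test for an outlying library.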

How the results depend on the processing

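Of 4354 values of single genes recomputed under the alternatives, 4119 kept their direction and side of the threshold, 113 lost the call, 121 gained one and 1 reversed: LEFTY1 in PPS-DE(b) against MPS-DE(b), at 0.10 once summed with LEFTY2. Among uncalled values, 72 changed sign. RLE scaling and summing TDGF1 with its copies changed none of 336. The edgeR fit called 26 of 32 tests at 24 h against Control (22 to 26 with 1 library left out), 11 of 24 between neighbouring mixes (7 to 10), 72 of 96 against the 24 h cells (68 to 72), 20 of 24 for media against Control (17 to 20), 19 of 24 between media (19 to 20), 8 of 72 against the standard protocols (6 to 9), 2 of 24 with day 1 activin left out (1 to 2), 16 of 32 for any difference among mixes (14 to 17), 3 of 8 interactions (1 to 4, with 1 without DE(a)-PM replicate 1), and 442 of 1218 for the pathway list (421 to 444). Without the filter on low counts, neighbouring mixes gave 18, the standard protocols 21, activin left out 6 and the interaction 7. DESeq2 gave 14 for the standard protocols and 7 for the interaction. Activin left out gave 1 with LEFTY1 and LEFTY2 summed and 6 with only the libraries compared. The cause of these shifts was not tested.

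With a replicate block the interaction gave 5 calls, adding CER1 (adjusted p = 0.0404) and FST (0.0469). Over 336 values the block added 7 calls and lost 0. The other 5 were CER1 in DE(a)-DE(b) and NODAL in APS-DE(b) against their 24 h cells (0.0225 and 0.0492), NODAL in PPS-DE(b) against MPS-DE(b) (0.0471), LEFTY2 in PPS-DE(b) against the standard endoderm protocol (0.0257) and FST among the mixes in LM (0.0406). Deviations of same-numbered libraries correlated at −0.1723 to 0.5311 over the pairs of conditions (median 0.1424, over 0.1 in 64.71%). Many same-numbered libraries thus deviated in part together. The main fit did not take the numbers as pairs, so such shared differences stayed in its spread. At 15522780 counts or more, differences among levels under 1 CPM rested on few counts, which holds for LEFTY1, LEFTY2 and CER1 in PM and LM medium.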
